A study of Homo sapiens with 36 samples.

Results

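The 44 genes described here encode the proteins that license and fire replication origins, unwind and copy DNA, join the new strands, supply deoxynucleotides and rebuild chromatin in S phase. They were chosen by name, with no measured value in the rule, but with earlier results of these data known. All 44 were found among the 21950 genes of the expression table. Each of the 44 also passed the filter on low values (a mean of at least 1 FPKM), which left 10586 genes to be tested. By role they fall into 7 sets: the helicase MCM2-7 (6 genes), origin licensing and firing (12), the sliding clamp and its loader (6), polymerases and primase (9), single-strand binding, flap removal and ligation (5), deoxynucleotide supply (4) and chromatin assembly (2).

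Expression was measured in K562, an established human leukemia line, grown in DMEM in multi-well plates that stood in incubators at 21%, 5% or 1% oxygen. Cells were collected after 6 h, 24 h, 3 d and 6 d, with a passage at 3 d and 3 libraries for each of the 12 combinations, 36 in all. No group carried an added drug or an engineered allele according to the labels, and 21% oxygen at the same time served as the control. Oxygen level and incubator cannot be told apart, and since nothing states that the 3 libraries of a group came from separate cultures, every p-value measures only the spread between these libraries.

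Before S phase, the origin recognition complex with CDC6 and CDT1 loads the MCM2-7 ring on DNA as an inactive double hexamer. At the start of S phase the kinase CDC7 and cyclin-dependent kinases help CDC45 and the GINS complex join MCM2-7, which turns the ring into the active helicase. Most of these genes are known targets of E2F transcription factors, which cyclin E, CDK2 and the retinoblastoma proteins control, and in cycling cells their mRNA is usually highest near the start of S phase.

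Values are FPKM, read fragments scaled to transcript length and library size, so that levels of different genes can be compared per length. Tests were made with limma on log2(FPKM + 1), and a gene passed at a Benjamini-Hochberg adjusted p under 0.05 over all tested genes. A difference is given on that log2 scale as the first named group minus the second, and it understates changes of weakly expressed genes. The tables hold no counts, so depth is unknown; a rough estimate from the values of weakly expressed genes put relative depth between 0.413 and 1.52. The lowest estimate was replicate 1 of 1% oxygen at 3 d. Yet 19245 genes were above 0 in it, so the estimate and the number of genes seen did not go together there. Replicate 3 of the same group stood apart and is called the shallow library: 7220 genes were above 0 in it, against 14512 to 19543 in each other library. Among 3695 genes with a median over 20 FPKM, 429 stood at 0 in it, and so did 7 replication genes (CDT1, GINS3, GINS4, PRIM1, POLD3, POLE2 and CHAF1B). None of the 44 was listed at 0 in any of the other 35 libraries. The tests therefore used 35 libraries, and counts with all 36 stand beside them. All 12 defining genes of K562 had a mean of at least 1 FPKM, and their sum lay between 4350 and 38698 FPKM over the libraries. Of 23 markers of lymphocytes, monocytes, fibroblasts and epithelium only CD3D (a mean of 119 FPKM), LYZ (24.5) and COL1A2 (4.11) reached 1 FPKM. In bulk RNA, fewer cells in S phase and less of these RNAs per cell cannot be told apart.

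The 44 genes were expressed in every group, with means from 6.36 FPKM for CHAF1A to 361 FPKM for MCM7 and a median of 55.7. For the median gene, the group with the highest mean was 1.92 times the one with the lowest. The lowest group was 1% oxygen at 3 d for 27 genes and 5% oxygen at 3 d for 11, and with all 36 libraries for 31 and 8. The lowest and highest groups were not counted over all tested genes. The highest group was 1% oxygen at 6 h for 16 genes, 21% oxygen at 24 h for 9 and 1% oxygen at 6 d for 9. Summed over the 44, each library of 21% oxygen at 3 d held 4125 to 4346 FPKM, those of 5% oxygen 2959 to 3120 and those of 1% oxygen 2590 and 2768. At 6 d the sums were 3783 to 3893 in 21%, 3324 to 3478 in 5% and 4399 to 4651 in 1% oxygen. As deposited, the 3 levels of oxygen thus did not overlap at either time. In these values 1% was the lowest at 3 d and the highest at 6 d. This order depended on the scaling. All genes summed to 720124 to 839758 FPKM in 5% and to 680121 and 701994 in 1% oxygen at 3 d. At 6 d the totals were 671607 to 892877 in 21%, 689796 to 706674 in 5% and 753596 to 833457 in 1%. Relative to these totals, 1% and 5% overlapped at 3 d, and 21% overlapped both other levels at 6 d. The shallow library held 2075 FPKM over the 44.

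**Figure D1:**
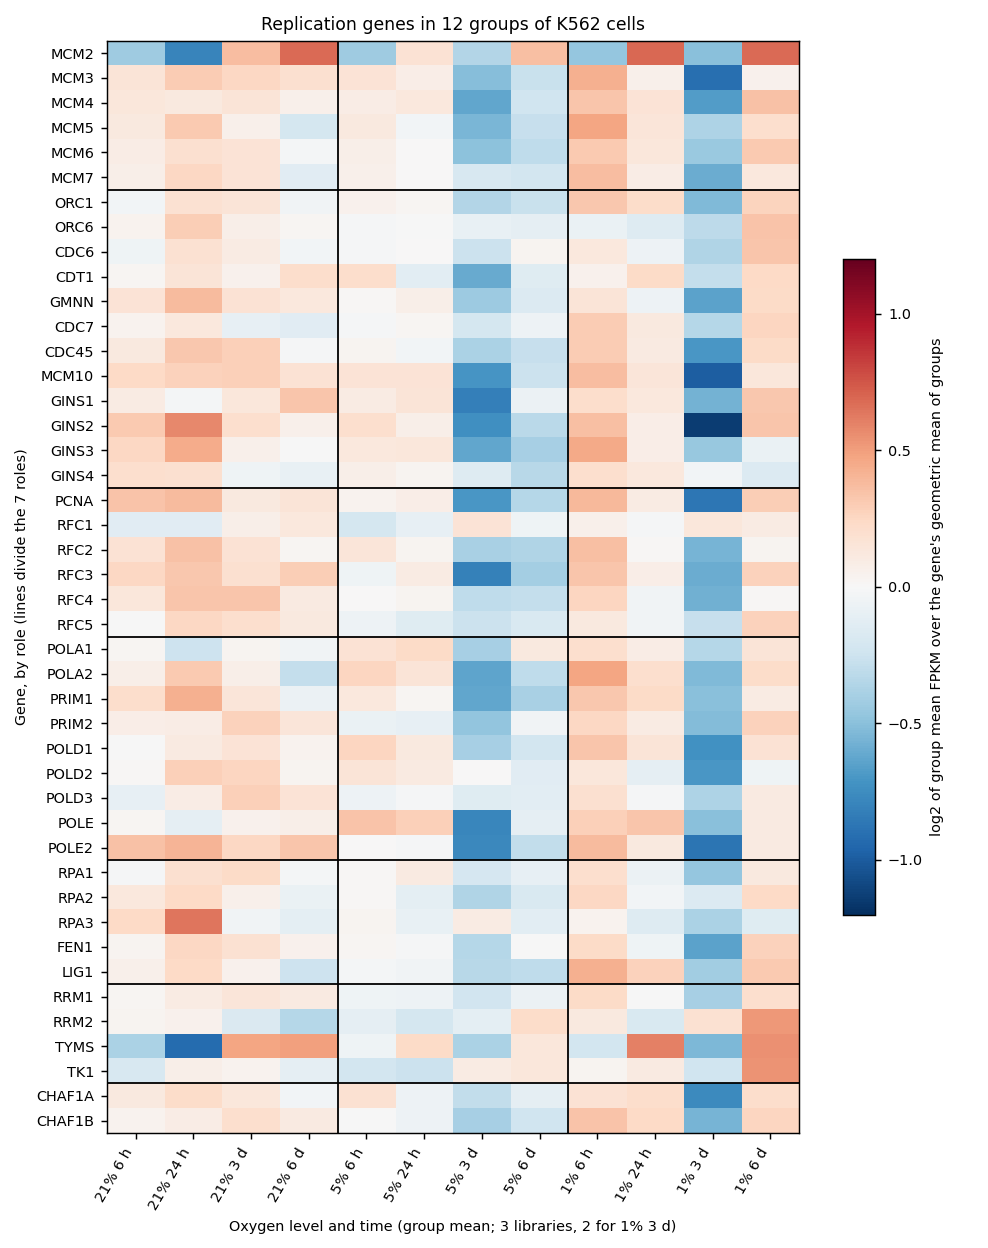
Mean FPKM of each of the 44 genes in the 12 groups, as log2 of the group mean over the gene's own geometric mean of the 12 groups (colour), with genes in rows by role and groups in columns. The columns of 1% and 5% oxygen at 3 d are the bluest. Without the shallow library, 1% oxygen at 3 d is the lowest group of 27 genes, a count not made over all tested genes.

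After 3 d, most of the replication genes were lower in both low-oxygen levels than in 21% oxygen. In 1% oxygen 38 of 44 fell and 1 rose, where 28.6% of all tested genes fell and 25.1% rose. In 5% oxygen 37 fell and 0 rose, where 29.4% of all genes fell and 15.7% rose. The median difference of the 44 was -0.66 in 1% and -0.58 in 5% oxygen, beside -0.02 and -0.10 over all tested genes. With all 36 libraries 40 genes passed in 1% oxygen (39 lower, 1 higher), where 53.2% of genes passed in either direction, and 24 in 5% oxygen, all lower, where 21.8% did.

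Because these genes moved together, their promoters were read from RefSeq (GRCh38.p14), which held 38 of the 44. Windows of 250 bases before each gene start were searched on both strands for 4 spellings of the E2F site, TTTGGCGC, TTTCCCGC, TTTGCCGC and TTTCGCGC, of which the first and last can overlap on opposite strands. At least 1 was found for 14 of the 38 genes (36.8%; CDC7, CDT1, GINS2, GMNN, LIG1, MCM3, MCM6, MCM7, PCNA, POLA1, POLA2, POLE, RFC3 and TYMS), and for 3.4% of the 27305 symbols with such a window. CCAAT, the letters of the NF-Y site, was found for 23 (60.5%), and for 37% of all symbols. TTTGAA, the letters of the cell cycle homology region of many mitotic genes, was found for 1 (2.63%), RRM1, and for 16.1% of all symbols. Members that fell in 1% oxygen at 3 d numbered 12 of the 14 with E2F letters and 22 of the 24 without, with medians of -0.68 and -0.70. The symbols set beside the 38 were not limited to tested genes, nor matched for the base composition of their promoters. A match is a match of letters and no evidence of binding.

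The windows of 6 genes with such letters are shown as examples from the helicase, the clamp and a polymerase that are described with their values in the text, with the matches on either strand in capitals and the last base next to the gene start, all 5′ to 3′ on the strand of the gene. MCM3 (chr6:52284743-52284922, minus strand) holds 1 match at positions -174 to -167, and MCM6 (chr2:135876444-135876603, minus strand) holds 2 pairs of matches, TTTGGCGC on its own strand overlapping TTTCGCGC on the other. MCM7 (chr7:100101398-100101517, minus strand) has a match next to its start and another further upstream, outside the bases shown. GINS2 (chr16:85688955-85689054, minus strand) and PCNA (chr20:5126623-5126722, minus strand) carry TTTCCCGC on the opposite strand, at positions -31 to -24 and -59 to -52 from the start, and POLA2 (chr11:65261862-65261961, plus strand) carries TTTCGCGC on its own strand, at positions -53 to -46.
MCM3: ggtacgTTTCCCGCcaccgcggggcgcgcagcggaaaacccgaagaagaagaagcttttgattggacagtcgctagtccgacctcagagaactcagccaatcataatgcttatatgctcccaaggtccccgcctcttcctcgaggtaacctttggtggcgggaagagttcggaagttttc
MCM6: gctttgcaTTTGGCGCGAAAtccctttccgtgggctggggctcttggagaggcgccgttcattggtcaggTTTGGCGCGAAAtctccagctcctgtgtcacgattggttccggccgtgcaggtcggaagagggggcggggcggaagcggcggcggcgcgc
MCM7: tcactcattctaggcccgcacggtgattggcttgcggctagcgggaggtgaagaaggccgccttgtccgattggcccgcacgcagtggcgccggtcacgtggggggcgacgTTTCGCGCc
GINS2: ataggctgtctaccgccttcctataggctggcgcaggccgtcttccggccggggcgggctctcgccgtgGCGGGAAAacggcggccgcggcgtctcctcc
PCNA: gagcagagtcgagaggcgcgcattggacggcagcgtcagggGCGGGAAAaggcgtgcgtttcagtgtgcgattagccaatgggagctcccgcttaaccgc
POLA2: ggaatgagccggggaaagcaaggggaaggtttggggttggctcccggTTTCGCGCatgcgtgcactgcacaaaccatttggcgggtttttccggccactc

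All 6 genes of the MCM2-7 ring fell in both levels. MCM3 stood at 147, 141 and 149 FPKM in the 3 libraries of 21% oxygen, 77.4, 83.5 and 95.8 in 5% and 64.1 and 66.6 in 1% oxygen, with 77.7 in the shallow library. The groups did not overlap, and the difference from 21% was -1.14 (SE 0.074, adjusted p 4.42e-13) in 1% and -0.77 (SE 0.067, adjusted p 2.99e-10) in 5% oxygen. MCM4 was at 98.5, 101 and 102 FPKM in 21%, 59.2, 54.2 and 62.99 in 5% and 58.2 and 55.4 in 1% oxygen (66.6 in the shallow library). Its difference of -0.77 (SE 0.068, adjusted p 4.12e-10) in 5% oxygen was as large as that of MCM3. MCM7, the most abundant of the 44, was at 394, 392 and 398 FPKM in 21%, 310.2, 303 and 315 in 5% and 217 and 249.7 in 1% oxygen, an ordered fall with no overlap of libraries. The other differences in 1% oxygen were -0.60 for MCM6, -0.43 for MCM5 and -0.86 for MCM2, whose libraries varied more than those of the rest of the ring.

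Of the 12 licensing and firing genes 9 fell in 1% and 9 in 5% oxygen. GINS2, a subunit of the GINS complex of the active helicase, had the largest fall of all 44 in 1% oxygen. It was at 114, 119 and 128 FPKM in 21% oxygen, 63.2, 60.2 and 65.4 in 5% and 42.2 and 52.8 in 1% oxygen (32.1 in the shallow library). The difference was -1.33 (SE 0.11, adjusted p 3.8e-11) in 1% and -0.92 (SE 0.097, adjusted p 9.07e-09) in 5% oxygen, with no overlap between any of the 3 levels. CDC45, the other partner of MCM2-7 in the helicase, was at 337, 353 and 368 FPKM in 21%, 221, 224 and 222 in 5% and 171 and 185 in 1% oxygen (139.9 in the shallow library), a difference of -0.98 (SE 0.073, adjusted p 6.38e-12) in 1%. MCM10, which acts in helicase activation, was at 20.2, 21.8 and 23.4 FPKM in 21% and 8.12 and 9.92 in 1% oxygen, where the shallow library was high at 33.4. Its difference of -1.19 (SE 0.11, adjusted p 5.09e-10) became -0.60 (adjusted p 0.0499) with that library. CDC6 was likewise high there, at 107 FPKM beside 46.3 and 43.2, and its difference went from -0.45, which passed, to -0.04, which did not. GMNN, the inhibitor of licensing that binds CDT1, went from 349, 376 and 388 FPKM in 21% to 212 and 211 in 1% oxygen (-0.81). GINS4 (0.01 in 1%, -0.09 in 5%) and the kinase gene CDC7 (-0.23 and -0.11) did not pass in either level, but with the shallow library, where it was at 0, GINS4 passed in 1% (-0.96, adjusted p 0.0463). The other 3 genes of this set fell in both levels: in 1% oxygen by 0.67 for ORC1 of the origin recognition complex, 0.64 for GINS1 and 0.49 for GINS3. GINS1 was high in the shallow library, at 20.8 FPKM beside 8.09 and 7.21. With that library its mean in 1% oxygen was 12.04 FPKM, beside 12.48 in 21%. ORC6 was at 44.5 FPKM there, beside 33.95 and 32.1, and its mean with that library was 36.8 FPKM, beside 42.8 in 21%. CDT1 (-0.33) did not pass in 1% oxygen, and ORC6 (-0.16) did not pass in 5%.

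PCNA, the ring that tethers polymerases to DNA, fell in both levels, as did 4 of the 5 clamp loader genes. PCNA was at 212, 218 and 208 FPKM in 21% oxygen, 127, 124 and 111 in 5% and 109.8 and 104 in 1% oxygen. The shallow library had only 14.1 FPKM. Without it the difference in 1% oxygen was -0.99 (SE 0.092, adjusted p 5.67e-10), and with it -1.93. RFC3 was at 51.3, 54.6 and 48.4 FPKM in 21%, 28.3, 23.5 and 25.4 in 5% and 29.1 and 30.7 in 1% oxygen, and its difference in 5% oxygen, -0.98 (SE 0.098, adjusted p 4.15e-09), was among the largest of the 44. RFC1, the large subunit of the loader, did not follow: it was at 21.5, 22.3 and 21.6 FPKM in 21%, 21.1, 23.4 and 25.3 in 5% and 23.4 and 22.2 in 1% oxygen, and the libraries of the 3 levels overlapped. The other loader genes fell in 1% oxygen by 0.90 (RFC4), 0.47 (RFC5) and 0.72 (RFC2). In the shallow library RFC3 was at 50.2 FPKM, among the values of 21% oxygen.

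All 9 polymerase and primase genes fell in both levels. The largest differences were those of POLE2, the second subunit of the leading-strand polymerase. POLE2 was at 21.5, 23.9 and 24.9 FPKM in 21% oxygen, 12.7, 12.7 and 9.19 in 5%, 9.71 and 11.8 in 1% and at 0 in the shallow library. The difference was -1.06 (SE 0.14, adjusted p 5.16e-07) in 1% and -0.98 (SE 0.13, adjusted p 5.04e-07) in 5% oxygen. POLD2, a subunit of the lagging-strand polymerase, was at 192, 189 and 194 FPKM in 21%, 151, 155 and 175 in 5% and 91.2 and 106 in 1% oxygen. It fell more in 1% (-0.96) than in 5% oxygen (-0.26), and 1% against 5% differed by -0.70 (SE 0.092, adjusted p 1.01e-05). PRIM1, the catalytic subunit of primase, was at 98.8, 106 and 107 FPKM in 21%, 55.2, 68.4 and 58.4 in 5%, 66.7 and 65.5 in 1% and at 0 in the shallow library. Its difference in 5% oxygen, -0.77 with 35 or 36 libraries, lost its call with all 36 (adjusted p 0.579), although no library of 5% or 21% oxygen had changed. The other falls in 1% oxygen were 0.52 for POLE, 0.88 for POLD1, 0.36 for POLA1, 0.57 for POLA2, 0.60 for POLD3 and 0.77 for PRIM2. In the shallow library PRIM2 was at 38.4 FPKM, among the values of 21% oxygen, beside 19.9 and 21.8 in the others of its group.

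Of the 5 genes for single-strand binding, flap removal and ligation 4 fell in each level. FEN1, the nuclease that removes flaps from Okazaki fragments, went from 165, 160.4 and 175 FPKM in 21% to 116, 109 and 124 in 5% and 91.97 and 97.1 in 1% oxygen, with 61.1 in the shallow library (-0.81 in 1%, -0.52 in 5%). The others fell in 1% oxygen by 0.68 (RPA1), 0.22 (RPA2) and 0.46 (LIG1), although RPA2 stood at 0.11 after quantile normalization. RPA3, the smallest subunit of the single-strand binding complex, did not pass in either level (-0.33 and 0.13). Both chromatin assembly genes fell, CHAF1A by 0.75 and CHAF1B by 0.74 in 1% oxygen.

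Of the 4 deoxynucleotide genes 3 fell and 1 rose in 1% oxygen, and 2 fell in 5%. RRM2, the small subunit of ribonucleotide reductase, was the single gene of the 44 that rose in 1% oxygen at 3 d, from 159, 171 and 176 FPKM in 21% to 215 and 217 in 1% oxygen (0.36, SE 0.083, adjusted p 0.000676). The shallow library, at 168 FPKM, lay among the values of 21% oxygen, and with it the difference was 0.23 (adjusted p 0.0292). In 5% oxygen RRM2 was at 179, 169 and 177 FPKM and did not pass. Its partner RRM1, the large subunit, fell by 0.54 in 1% and by 0.37 in 5% oxygen. TK1, the thymidine kinase of cycling cells, was at 220.1, 207 and 229 FPKM in 21%, 225, 234 and 221 in 5% and 161 and 198 in 1% oxygen, and its fall in 1% (-0.29) became 0.0095 after quantile normalization. TYMS, which makes thymidylate, is described with MCM2 further on.

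**Figure D2:**
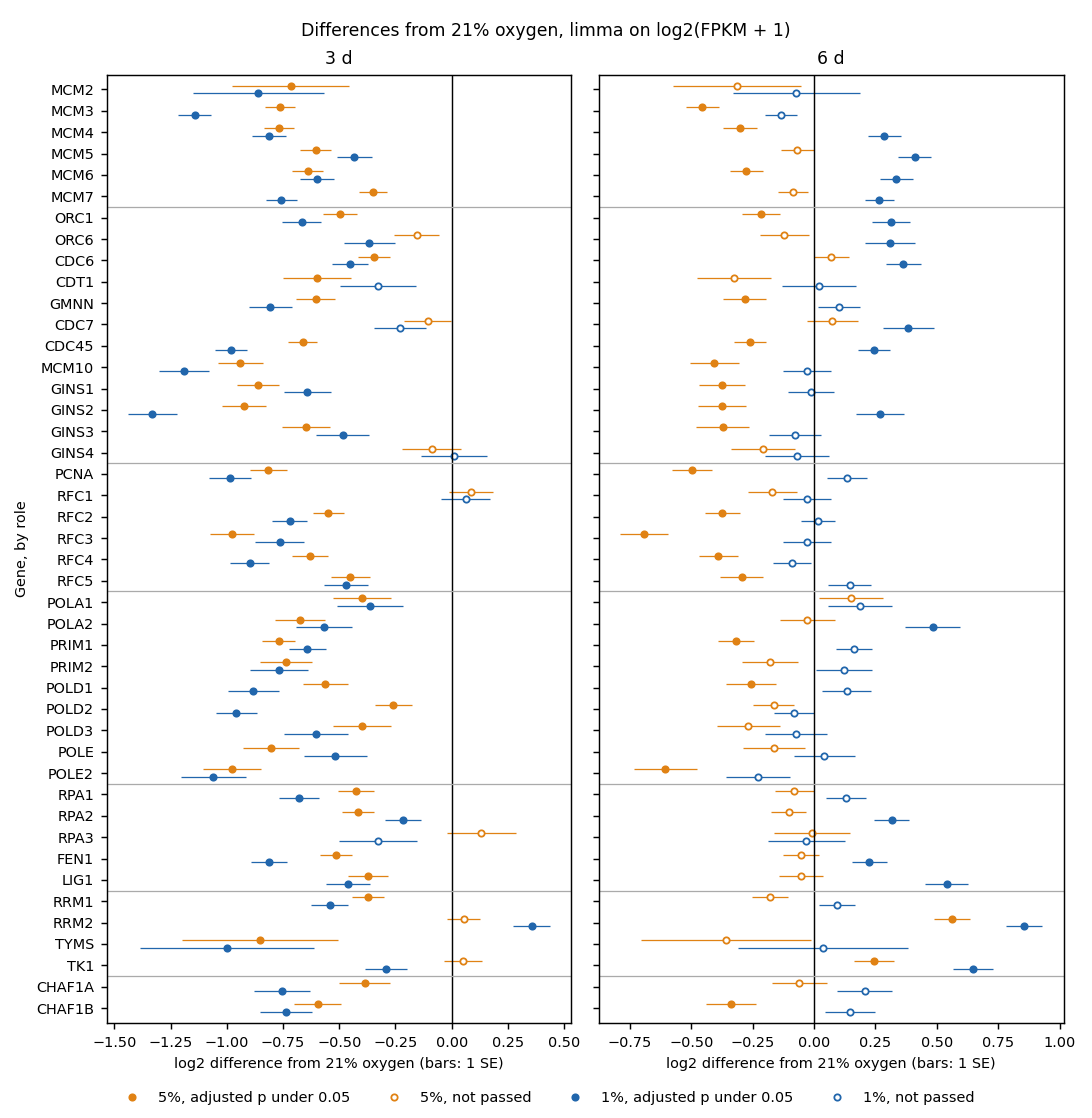
Differences from 21% oxygen of the 44 genes at 3 d (left) and 6 d (right), on the log2(FPKM + 1) scale with 1 SE, in 5% (orange) and 1% oxygen (blue). Filled points passed at an adjusted p under 0.05; at 3 d nearly all lie left of 0, while at 6 d the 16 filled points of 1% oxygen lie right of 0 and 19 of the 21 filled points of 5% oxygen lie left of it.

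Other measures moved with the falls at 3 d. Of 6 tested noncoding RNAs, listed to follow RNA quality, 4 rose in 1% oxygen and 1 fell. In 5% oxygen 4 rose and 1 fell, and the medians were 1.21 in 1% and 0.50 in 5%. An effect of oxygen on these RNAs and one of RNA quality cannot be told apart. Of all tested genes 25.1% rose and 28.6% fell in 1%, and 15.7% rose and 29.4% fell in 5% oxygen. MALAT1 was at 129.9, 134 and 106 FPKM in 21%, 237, 219 and 119.7 in 5% and 476 and 509.9 in 1% oxygen (583 in the shallow library). The number of genes above 0 was 17526 to 17951 in 21%, 18592 to 18896 in 5% and 18885 to 19245 in the 2 other libraries of 1% oxygen. Their part in the results at 3 d was not tested.

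Fewer of the 44 genes passed between the 2 low-oxygen levels at 3 d than between either and 21% oxygen. In 1% against 5% oxygen 12 of the 44 genes were lower and 1 higher (median -0.14, all genes 0.06), where 10.4% and 16.5% of all genes were. POLD2, RPA3 (-0.46), MCM7 (-0.41), GINS2 (-0.41) and MCM3 (-0.38) had the largest falls and RRM2 the rise (0.30). The direction of this comparison depended on the scaling: after rescaling to TPM 1 gene was lower and 6 were higher, with the median of all genes at 0.25. With only the groups compared in the fit 0 genes passed. Without replicate 1 of 1% oxygen at 3 d, which leaves 1 library in that group, 3 genes passed, and with all 36 libraries 20 did (17 lower, 3 higher), where 36.6% of all genes passed in either direction.

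By 6 d the 2 levels had moved apart. In 1% oxygen 16 of the 44 genes were higher than in 21% and 0 lower (median 0.13, all genes -0.03), where 13.8% of all genes were higher and 16.1% lower. In 5% oxygen 19 were lower and 2 higher (median -0.24, all genes -0.06), where 21.7% were lower and 15.2% higher. Compared directly, 31 genes were higher in 1% than in 5% oxygen and 0 lower (median 0.37, all genes 0.04), where 16.1% and 11.4% of all genes were. Counts with all 36 libraries were smaller, with no shallow library among those compared: 8 (10.9% of all genes in either direction), 10 (14.8%) and 18 (8.61%). After rescaling to TPM 9 genes were higher in 1% than in 21%, 5 were lower and 2 higher in 5% than in 21%, and 11 were higher in 1% than in 5%, with the median of all genes at -0.06, 0.05 and -0.11. The number of genes above 0 also differed at 6 d. It was 17941 to 18257 in 21%, 19003 to 19543 in 5% and 16111 to 16746 in 1% oxygen, and its part in these results was not tested.

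The helicase ring and its partners showed the division between the levels at 6 d. MCM6 was at 69.96, 71.6 and 71.1 FPKM in 21%, 55.3, 60.7 and 59.3 in 5% and 83.1, 89.2 and 97.5 in 1% oxygen. The 3 levels did not overlap, and 1% against 5% differed by 0.61 (SE 0.068, adjusted p 1.1e-07). GINS2 was at 119, 105 and 105 FPKM in 21%, 84.6, 83.1 and 84.2 in 5% and 123, 132 and 140.4 in 1% oxygen (0.64, SE 0.097, adjusted p 1.27e-05, 1% against 5%). MCM5 had the largest rise of the ring against 21% oxygen, from 87.8, 87.5 and 89.7 to 116, 112 and 125 FPKM (0.41, SE 0.068, adjusted p 3.56e-05). MCM3 did not rise above 21% oxygen: it was at 139, 139 and 141 FPKM in 21%, 99.8, 106 and 98.96 in 5% and 122, 123 and 136 in 1% oxygen, and was lower than 21% in 5% oxygen by 0.46. Among the licensing genes, CDC7 rose in 1% oxygen by 0.38 against 21%, and MCM10 was lower in 5% by 0.41.

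The clamp and its loader stayed low in 5% oxygen at 6 d, where 5 of the 6 genes were lower than in 21%, and 5 of 6 were higher in 1% than in 5% oxygen. PCNA was at 221, 212 and 221 FPKM in 21%, 158, 159.7 and 145 in 5% and 226, 238 and 254 in 1% oxygen. The libraries of 5% oxygen lay below all others, and PCNA differed by -0.50 (SE 0.082, adjusted p 2.29e-05) from 21% and by 0.63 between 1% and 5%. RFC3 showed the largest difference of the 44 between 5% and 21% oxygen at 6 d, with 33.4, 37.5 and 31.1 FPKM in 5% and 55.1, 54.8 and 56.2 in 21% (-0.69, SE 0.098, adjusted p 2.27e-06). In 1% oxygen RFC3 was at 47.6, 57.8 and 58.1 FPKM, around the values of 21%, and 1% against 5% differed by 0.67. POLE2 was lower in 5% oxygen by 0.61, and of the 9 polymerase genes only POLA2, a subunit of the polymerase that extends primers from primase, rose in 1% oxygen against 21% (0.48). CHAF1B was lower in 5% oxygen (-0.34) and higher in 1% than in 5% (0.48).

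At 6 d RRM2 and TK1, of deoxynucleotide supply, had the largest rises of the 44 in 1% oxygen. RRM2 was at 148, 147 and 155 FPKM in 21%, 229, 221 and 215 in 5% and 268, 262 and 287 in 1% oxygen, in that order with no overlap. It was higher than in 21% oxygen in both levels, by 0.86 (SE 0.074, adjusted p 4.39e-10) in 1% and 0.56 (SE 0.074, adjusted p 7.92e-07) in 5%. TK1 was at 199, 196 and 195 FPKM in 21%, 237, 241 and 221 in 5% and 305, 304 and 316 in 1% oxygen (0.65 in 1%, 0.24 in 5%). RRM2 and TK1 were the 2 genes that rose in 5% oxygen. LIG1, the ligase that seals Okazaki fragments, was at 29.2, 27.6 and 29.4 FPKM in 21%, 28.01, 26.7 and 28.3 in 5% and 41.2, 40.3 and 45.4 in 1% oxygen, a rise of 0.54 (SE 0.088, adjusted p 2.83e-05) in 1%.

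**Figure D3:**
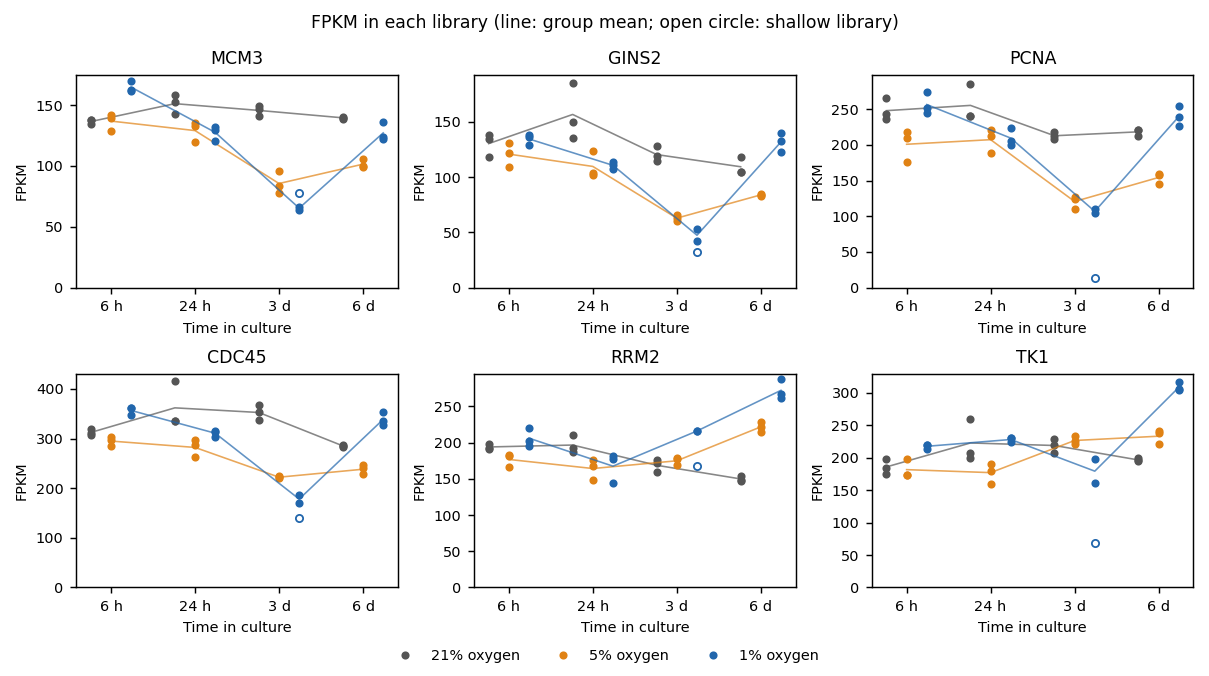
FPKM of MCM3, GINS2, PCNA, CDC45, RRM2 and TK1 in each library (points) and the group mean (lines) against time, by oxygen level, with the shallow library as an open circle outside the mean. For the first 4 genes 1% oxygen dips at 3 d and returns at 6 d while 5% oxygen returns in part, and RRM2 and TK1 end highest in 1% oxygen.

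Within 1% oxygen, 41 of the 44 genes rose from 3 d to 6 d and 0 fell (median 0.72, all genes 0.03), where 23.8% and 20.8% of all genes did, and GINS4, RFC1 and RPA3 did not pass. GINS2 (1.46), PCNA (1.16), MCM2 (1.11), TYMS (1.06) and MCM10 (1.05) rose most. All 36 libraries gave 38, where 49% of all genes passed. Within 5% oxygen 20 rose and 0 fell (median 0.19, all genes 0.04), where 16.1% and 8.94% of all genes did, and 7 passed with all 36 libraries (7.41% of all genes). The largest of these rises were MCM2 (0.73), GINS1 (0.67) and POLE (0.65). In 21% oxygen 4 genes fell from 3 d to 6 d (CDC45, MCM7, LIG1 and MCM5, by 0.27 to 0.30) and 0 rose, where 3.1% and 4.21% of all genes did, and 0 passed with all 36 libraries (1.06%).

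The rise from 3 d to 6 d was larger in 1% than in 5% oxygen for 28 of the 44 genes and smaller for 0, in a test of the difference itself that was added after the data had been seen. The median of that difference was 0.46, and -0.03 over all genes, of which 17% passed in the positive and 18.3% in the negative direction. GINS2 (1.05, SE 0.15, adjusted p 3.9e-06), CDC45 (0.82), PCNA (0.80), POLD2 (0.78) and MCM7 (0.76) had the largest. After rescaling to TPM, which put the median of all genes at -0.37, 6 genes had a larger and 1 a smaller rise in 1% oxygen. The count was 22 with all 36 libraries, where 25% of all genes passed.

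The falls at 3 d were also present against 6 h in the same oxygen level, in comparisons that shared the low-oxygen libraries of 3 d with those above. From 6 h to 3 d, 37 of the 44 genes fell in 1% oxygen and 0 rose (median -0.78, all genes -0.01), where 30.7% and 27% of all genes did, and 37 passed with all 36 libraries (56.4% of all genes). GINS2 (-1.49), MCM3 (-1.32), MCM10 (-1.26), PCNA (-1.25) and POLE2 (-1.19) fell most. In 5% oxygen 32 fell (median -0.39, all genes -0.08) and 2 rose, RFC1 (0.36) and TK1 (0.32), where 30.8% and 21.1% of all genes did. POLE, the catalytic subunit of the leading-strand polymerase, had the largest fall in 5% oxygen (-1.06). Both rises ended under TPM, and 20 genes passed with all 36 libraries (27.9% of all genes). In 21% oxygen 0 fell and 5 rose (TYMS, MCM2, POLD2, RPA1 and TK1), where 6.23% and 11.9% of all genes did, and 0 passed with all 36 libraries (4.6%).

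Early differences were small. At 6 h in 1% oxygen 2 genes of the helicase ring were higher, where 0.0756% of all genes were higher and 0.0189% lower. MCM5 was at 106, 114 and 112 FPKM in 21% and 145, 137 and 144 in 1% oxygen (0.36, SE 0.068, adjusted p 0.037), and MCM7 at 360.5, 385 and 367 and 464, 452 and 451 (0.30, SE 0.061, adjusted p 0.044). The libraries of neither gene overlapped. A positive difference was seen for 40 of the 44 genes (median 0.18, all genes 0.05), and the share of all genes with one was not taken. At an unadjusted p under 0.05 there were 19 of the 44 (10.9% of all genes), and 9 with all 36 libraries (3.3%). None passed with all 36 libraries, nor did any gene of the table (0%), and 0 of the 44 passed after TPM or quantile scaling, with only the groups compared in the fit, or without any 1 library of the groups compared. In 5% oxygen at 6 h, limma called 0 of the 44 and 0% of all genes in either direction, with 35 or 36 libraries. At an unadjusted p under 0.05 it gave 5 of the 44 with 35 libraries, near the share of all genes (9.7%), and 3 with 36 (2.64% of all genes).

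At 24 h the direction of the replication genes depended on the scaling of the libraries. As deposited, 20 of the 44 were lower and 4 higher in 1% than in 21% oxygen (median -0.14, all genes -0.005), where 22.1% and 16.6% of all genes were. In 5% oxygen 21 were lower and 4 higher (median -0.22, all genes -0.03), where 18.7% and 9.53% were. After rescaling to TPM 26 were higher and 1 lower in 1%, and 14 were higher and 0 lower in 5% oxygen, with the median of all genes at 0.39 and 0.36. After quantile normalization the splits were 8 higher and 4 lower, and 5 higher and 3 lower. Replicate 3 of 21% oxygen at 24 h had the highest total of all libraries (1171410 FPKM) and the second lowest estimate of relative depth (0.437), and without it 13 genes passed in 1% and 8 in 5% oxygen. With all 36 libraries 11 passed in 1% (16.2% of all genes) and 10 in 5% oxygen (9.38%). With only the groups compared in the fit 3 passed in 1% and 0 in 5% oxygen.

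RPA3 had the largest fall at 24 h in both levels. It was at 59.9, 70.04 and 113 FPKM in 21%, 57.6, 46.7 and 41.5 in 5% and 45.5, 51.3 and 42.97 in 1% oxygen, a difference of -0.73 (SE 0.16, adjusted p 0.000647) in 1%. The low-oxygen libraries lay below all 3 of 21% oxygen, of which replicate 3 was by far the highest. GINS2 was at 149.6, 135 and 185 FPKM in 21%, 123, 104 and 102 in 5% and 108, 114 and 111 in 1% oxygen (-0.50 and -0.49). The 4 genes higher in both levels were MCM2, TYMS, POLA1 and POLE.

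MCM2 and TYMS varied most between libraries of one group: at 24 h their differences had SEs of 0.26 and 0.35, beside 0.061 to 0.16 for the other 42 genes. At 6 h in 21% oxygen MCM2 was at 21.5, 32.3 and 42.7 FPKM and TYMS at 17.8, 64.5 and 69.96. At 24 h MCM2 was at 28.3, 23.5 and 23.2 FPKM in 21%, 26.9, 56.2 and 63.1 in 5% and 70.4, 68.4 and 70.5 in 1% oxygen. TYMS was at 54.6, 34.7 and 15.5, 46.9, 90.8 and 95.8 and 102, 99.8 and 99.3 FPKM in the same groups. Both genes were low in replicate 1 of 5% oxygen at 24 h and high in its other replicates, and all libraries of 1% oxygen lay above those of 21%. The differences at 24 h were 1.45 (SE 0.26, adjusted p 0.000153) for MCM2 and 1.67 (SE 0.35, adjusted p 0.00055) for TYMS in 1% oxygen, and 0.85 and 1.23 in 5%.

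At 3 d both genes were lower in low oxygen, MCM2 at 65.1, 57.9 and 43.99 FPKM in 21%, 34.2, 25.04 and 42.2 in 5% and 23.98 and 37.03 in 1% (24.4 in the shallow library). TYMS was at 97.5, 85.1 and 93.8, 54.3, 42.2 and 56.3 and 41.6 and 49.6 FPKM (57.4 in the shallow library), a difference of -1.001 (SE 0.39, adjusted p 0.0307) in 1% oxygen. At 6 d in 1% oxygen replicate 3 was apart for both, with 85.1, 81.5 and 40.6 FPKM for MCM2 and 114, 102 and 75.5 for TYMS. Genes outside the 44 took like values across libraries; 3 were chosen after their values had been seen. MSH6, a mismatch repair gene, was at 20.7, 33.8 and 39.3 FPKM in 5% oxygen at 24 h and 46.1, 44.1 and 25.5 in 1% oxygen at 6 d. CYC1, of respiratory complex III, was at 207, 359 and 443 and 565, 464 and 274 FPKM in these groups, and SURF6, a nucleolar protein gene, at 17.2, 54.2 and 60.95 and 65.3, 61.8 and 29.8. MCM4, another gene of the ring, did not share the pattern, with 103, 105 and 88.3 and 111, 113 and 123 FPKM. TYMS overlaps a gene on the opposite strand, and the sources used here do not state that fragments were counted by strand, so its reads and those of its antisense partner cannot be told apart.

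**Figure D4:**
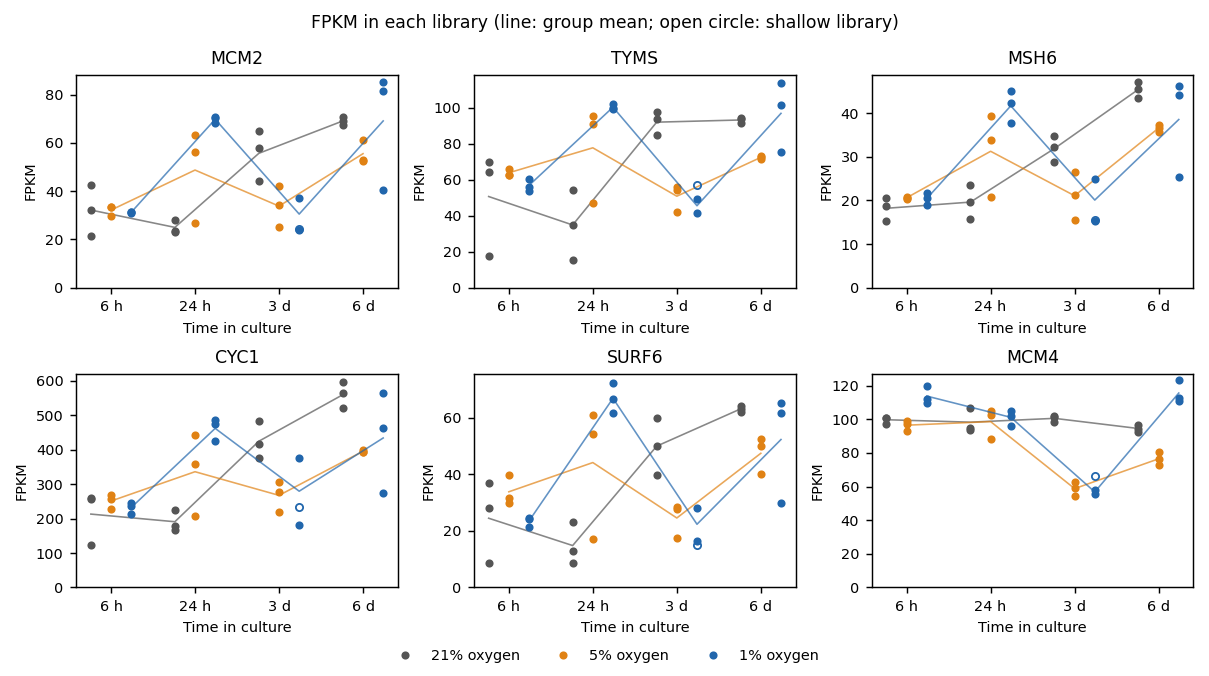
FPKM of MCM2, TYMS, the non-members MSH6, CYC1 and SURF6, and MCM4 in each library (points) with group means (lines) against time, by oxygen level; the open circle is the shallow library. In the first 5 panels replicate 1 of 5% oxygen at 24 h and replicate 3 of 1% oxygen at 6 d lie below the other libraries of their group, and in the panel of MCM4 they do not.

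The difference from 21% oxygen varied with time for 41 of the 44 genes in 1% oxygen (limma's moderated F test), where 63.3% of all tested genes passed, and for 36 in 5% oxygen, where 42% did. CDT1, RFC1 and GINS4 did not pass in 1% oxygen. All 36 libraries gave 33 in 1% (40.3% of all genes) and 16 in 5% oxygen (14.5%). In 1% oxygen 19 of the 44 varied and passed in opposite directions at different times, where 8.74% of all tested genes did, and 14 of these (1.62% of all genes) were lower at 3 d and higher at 6 d than 21% oxygen, among them GINS2, CDC45, LIG1 and TK1. The 14 rest on the 16 genes that passed at 6 d, of which 9 passed after TPM and 8 with all 36 libraries. They were not recounted under those settings. After quantile normalization the difference of TK1 at 3 d was 0.0095. In 5% oxygen 6 of the 44 passed in opposite directions (5.33% of all genes).

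Regulators of S phase entry were read at the same times. CDKN1A, which encodes the inhibitor p21 of cyclin E with CDK2, was at 4.90, 6.08 and 5.03 FPKM in 21% oxygen at 3 d, 33.6, 31.9 and 43.996 in 5% and 43.8 and 42.7 in 1% oxygen (50.3 in the shallow library). The differences were 2.81 (SE 0.19, adjusted p 1.19e-12) in 1% and 2.56 (SE 0.17, adjusted p 1.48e-12) in 5% oxygen. At 6 d CDKN1A was at 3.71, 5.23 and 3.77 FPKM in 21%, 26.3, 23.2 and 30.4 in 5% and 11.02, 12.3 and 12.8 in 1% oxygen, so that 1% lay between the other levels (-1.08 against 5%). SKP2, part of the ubiquitin ligase that degrades inhibitors of cyclin-dependent kinases, was at 95.7, 92.2 and 98.5 FPKM in 21% oxygen at 3 d, 31.1, 34.7 and 28.9 in 5% and 23.2 and 23.2 in 1% oxygen, and at 0 in the shallow library (-1.99 in 1%, -1.57 in 5%). At 6 d SKP2 was at 101, 85.2 and 92.97 FPKM in 21%, 33.6, 38.2 and 32.4 in 5% and 48.6, 48.7 and 61.9 in 1% oxygen. CCNE2, a cyclin E gene, was at 17.003, 18.1 and 14.96 FPKM in 21%, 18.4, 14.8 and 16.9 in 5% and 25.5, 26.95 and 28.2 in 1% oxygen at 6 d (0.66, SE 0.092, adjusted p 2.63e-06, 1% against 21%). The transcript of E2F1 itself was weak, between 0.71 and 3.11 FPKM outside the shallow library (12.8), and passed in 1% oxygen at 6 d (0.73) but not at 3 d (-0.14).

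In a list of 26 tested genes of E2F, cyclin and kinase control, 10 fell and 5 rose in 1% oxygen at 3 d (median -0.20), and 13 fell and 3 rose in 5%. The shares of all tested genes to read these and the following lists against were 28.6% lower and 25.1% higher in 1%, and 29.4% and 15.7% in 5% oxygen; in 1% the share of this list that passed was near that of all genes. CDK4 (-1.07) and CDK2 (-0.89) were among the falls in 1%, as was CCNE1 (-0.81). Of 30 other factors of the fork and of origins, 17 fell and 3 rose in 1% oxygen at 3 d (median -0.45) and 22 fell and 1 rose in 5% (median -0.53). POLE3 (-1.16), a histone-fold subunit of the leading-strand polymerase, RNASEH2A (-1.09), DSCC1 (-1.13) and the histone chaperone gene NASP (-0.68) had the smallest adjusted p in 1%, and DBF4, the partner of CDC7, fell by 0.36. POLD4, a small subunit of the lagging-strand polymerase, was one of those that rose (1.06).

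Of 23 other genes of nucleotide supply, 19 fell and 0 rose in 1% oxygen at 3 d (median -1.08), and 20 fell and 0 rose in 5% (median -0.67). DCTPP1, which breaks down dCTP and its analogs, was at 205, 204 and 248.9 FPKM in 21%, 95.7, 94.7 and 89.7 in 5% and 53.7 and 62.7 in 1% oxygen (51.3 in the shallow library). MTHFD1 (-1.58) and ATIC (-1.22), of folate and purine synthesis, and DHODH (-1.85), of pyrimidine synthesis, had the next smallest adjusted p. At 6 d, 16 of the 23 were higher in 1% than in 5% oxygen and 1 lower, where 16.1% and 11.4% of all tested genes were. For the replication genes the count in this comparison depended on the scaling: 31 passed as deposited and 11 after rescaling to TPM. No count after TPM is given here for these 23.

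Of 24 tested genes of G2 phase and mitosis, 8 fell and 3 rose in 1% oxygen at 3 d (median -0.17), and 10 fell and 2 rose in 5% (median -0.21); the share that fell in 1% was near the 28.6% of all genes. BIRC5 (-0.80) had the smallest adjusted p and CCNB1, the mitotic cyclin, fell by 0.51, while BUB1 of the spindle checkpoint rose (0.51). MKI67, the common marker of cycling cells, was at 10.7, 9.95 and 10.3 FPKM in 21% and 10.9 and 10.8 in 1% oxygen at 3 d and did not pass (0.06), whereas in 5% oxygen it fell by 0.36. No test of the difference between these lists and the 44 genes was made.

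**Figure D5:**
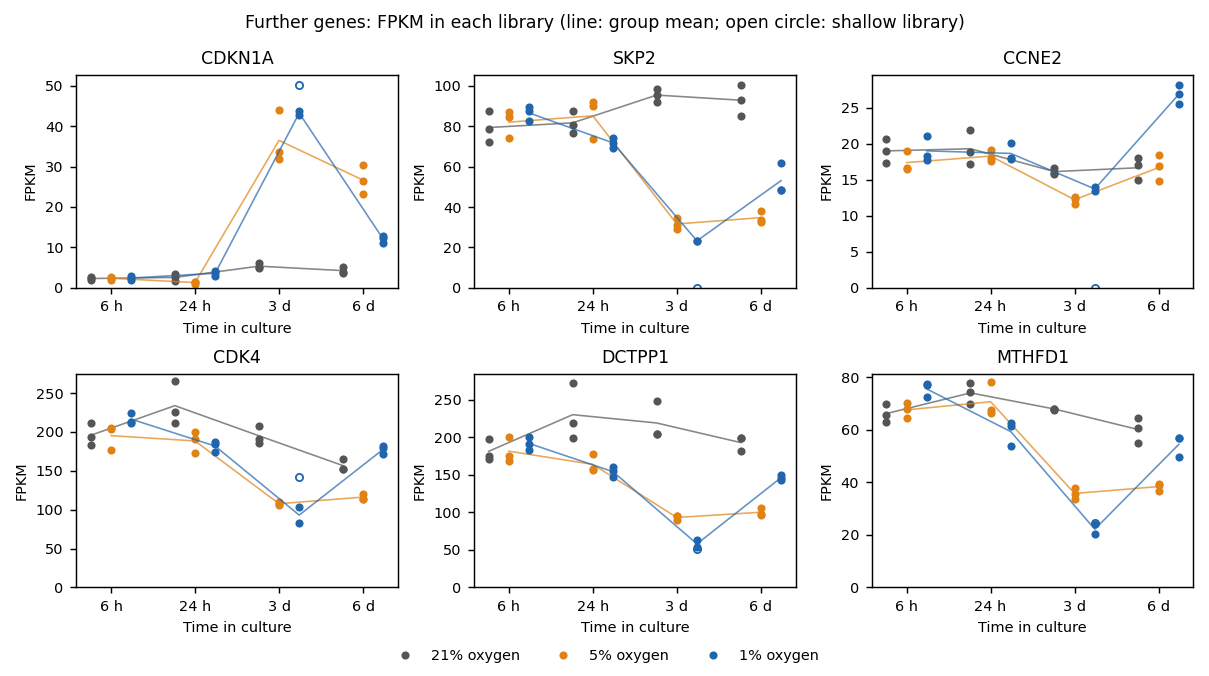
FPKM of CDKN1A, SKP2, CCNE2, CDK4, DCTPP1 and MTHFD1 in each library (points) with group means (lines) against time, by oxygen level; the open circle is the shallow library. CDKN1A is high and SKP2 low at 3 d in both low-oxygen levels, and at 6 d both move back further in 1% than in 5% oxygen.

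At the level of transcripts, the values of all 44 genes equalled the sum of their RefSeq transcripts within 1%. For 6 of them (MCM3, ORC1, GMNN, MCM10, POLD1 and POLD2) 2 transcripts each held at least 20% of the gene and a mean of at least 5 FPKM. Every one of these transcripts was lower in 1% than in 21% oxygen at 3 d, with ratios of the means between 0.401 and 0.7; no test was made on transcripts.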

How the data were processed

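K562 RNA was sequenced as paired 25-base reads from poly(A) RNA amplified by a Smart-seq2 type protocol, per the labels' protocols. FPKM values per gene and per transcript were deposited by the authors, who used TopHat and the Cufflinks suite (cuffquant and cuffnorm) per the submitters' processing notes and the series text; their versions, the genome build and the library scaling were not stated. No counts were used, so depth is unknown and a count test was not possible.

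Tests used limma 3.58.1 in R 4.3.3 on log2(FPKM + 1) of genes with a mean of at least 1 FPKM, with 1 mean per group over 35 libraries (23 residual degrees of freedom), moderated variances with a mean trend, two-sided p-values and Benjamini-Hochberg adjustment over all tested genes of a comparison (threshold 0.05). Replicate 3 of 1% oxygen at 3 d was left out of these fits and kept in an alternative with all 36. There were 16 comparisons of 2 groups, 2 moderated F tests (3 numerator degrees of freedom) and 1 contrast added after the data had been seen. The fit was tested on simulated data. Python 3.11.15 with matplotlib 3.10.9 made the plots.

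The 44 genes and all lists were chosen with earlier results of these data known. Per comparison, the rule named up to 5 genes with the largest rise and 5 with the largest fall past the threshold, those against the common direction, the largest difference of each role set and, from other lists, the 4 smallest adjusted p plus E2F1, CCNE1, CCNE2, CDKN1A, SKP2, DBF4, MKI67 and CCNB1; the text leaves some of these out and names some more.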

Additional observations from a re-analysis of the deposited data

Results flagged for a closer look

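Differences from 21% oxygen that themselves differed between times were called for 41 of the 44 replication genes in 1% oxygen (limma's moderated F test). In 5% oxygen they were called for 36. Of all tested genes, 63.3% and 42% passed. The change from 3 d to 6 d differed between 1% and 5% oxygen for 28 genes, all with the larger rise in 1%, in the contrast added after the data had been seen. Of all tested genes 17% passed in that direction and 18.3% in the other. This count depended on the scaling: after TPM 7 genes passed, 6 of them with the larger rise in 1% oxygen.

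Among the genes that varied with time, 19 passed in 1% oxygen in opposite directions at different times, where 8.74% of all tested genes did. They were MCM2, MCM4, MCM5, MCM6, MCM7, ORC1, ORC6, CDC6, CDC45, GINS2, POLA1, POLA2, POLE, RPA2, FEN1, LIG1, RRM2, TYMS and TK1. In 5% oxygen there were 6, where 5.33% of all tested genes did so: MCM2, POLA1, POLE and TYMS were higher at 24 h and lower at 3 d, and RRM2 and TK1 were lower at 24 h and higher at 6 d. Calls at 24 h depended on the scaling of the libraries, as given above. Those of 1% against 21% oxygen at 6 d went from 16 to 9 after TPM.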

How the results depend on the processing

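Most falls at 3 d were also called under the other scalings, with the exceptions by gene given at the end: after rescaling to TPM 33 genes were lower in 1% and 38 in 5% oxygen than in 21%, and after quantile normalization 34 in each, with 1 gene higher in 1% under either scaling and 2 higher in 5% under quantile normalization. The rise from 3 d to 6 d in 1% oxygen was called for 32 genes after TPM and 40 after quantile normalization. For counts after TPM or quantile normalization no share of all tested genes was taken, so they cannot be read against one. Counts that moved by over 1.5 times follow, as the number of the 44 genes passing; the cause was not tested. With all 36 libraries these were 0 for 1% against 21% oxygen at 6 h, 11 at 24 h and 8 at 6 d, 10 for 5% against 21% at 24 h, 24 at 3 d and 10 at 6 d, 20 and 18 for 1% against 5% at 3 d and 6 d, 0 and 0 for the changes within 21% oxygen to 3 d and to 6 d, 20 and 7 for those within 5%, and 16 for the variation with time in 5%. With TPM they were 0 for 1% against 21% at 6 h and 9 at 6 d, 14 for 5% against 21% at 24 h and 7 at 6 d, 7 and 11 for 1% against 5% at 3 d and 6 d, 8 for 21% oxygen at 3 d against 6 h, and 7 for the 6 d against 3 d change in 1% minus 5%. After quantile normalization 0 passed for 1% against 21% at 6 h, 12 at 24 h, and 8 for 5% at 24 h. With only the groups compared in the fit, which leaves fewer degrees of freedom, 0 passed for 1% against 21% at 6 h, 3 at 24 h, 0 for 5% against 21% at 24 h, 0 for 1% against 5% at 3 d and 10 for 21% oxygen at 6 d against 3 d. With no filter on low values 1 passed for 1% against 21% at 6 h and 0 for 21% oxygen at 3 d against 6 h. Replicate numbers did not pair the samples: of 44 correlations between same-numbered libraries' deviations 1 was over 0.1 (range -0.31 to 0.12). With the replicate block 0 genes passed for 1% against 21% at 6 h, and no other count moved by over 1.5 times (22 at 24 h, beside 24 without it). Leaving out 1 library at a time gave 0 to 0 for 1% against 21% at 6 h, 13 to 24 at 24 h, 35 to 38 at 3 d and 13 to 16 at 6 d. It gave 8 to 27 for 5% against 21% at 24 h, 33 to 36 at 3 d and 18 to 20 at 6 d, 3 to 13 and 28 to 32 for 1% against 5% at 3 d and 6 d, and 0 to 3 and 2 to 4 within 21% oxygen. Where this left 1 library in a group, that library was assumed to vary like the other groups. Of differences of named genes, those that changed sign after TPM were GMNN (0.019), ORC6 (0.010), POLD2 (0.079) and RFC4 (0.090) in 1% and POLE2 (0.023), PRIM1 (0.054) and RFC5 (0.066) in 5% oxygen at 24 h, and RPA3 (-0.012) in 5% oxygen at 3 d. After quantile normalization they were TK1 (0.0095), RPA2 (0.11), GINS4 (-0.14) and MKI67 (-0.000499) in 1% and CDC7 (0.0038) in 5% oxygen at 3 d. With all 36 libraries GINS4 (-0.96) and E2F1 (0.77) changed sign in 1% oxygen at 3 d, and leaving out 1 library gave GINS4 values from -0.0922 to 0.12 and E2F1 values from -0.30 to 0.017 (0.017 without replicate 1 of 1% oxygen).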
